A study of Mus musculus with 15 samples.

Results

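A bidirectional promoter is a stretch of DNA from which 2 protein-coding genes are transcribed in opposite directions, away from each other. The peaks described here were the 2419 of 122375 H3K27ac peaks that overlapped such a promoter in a mouse fusion-positive rhabdomyosarcoma (FP-RMS). A divergent pair was a start site on the minus strand with a start site of another gene on the plus strand to its right, at most 1 kb away, among the curated protein-coding mRNAs of RefSeq on mm10. There were 932 such gene pairs with 1849 genes, out of 21000 protein-coding genes. A peak belonged to a pair when at least 1 bp lay between 2 kb left of the left start site and 2 kb right of the right one. The 19151 genes without a start site in a pair served for comparison, each by the 2 kb on either side of the start site with the most transcripts, and are called unpaired promoters below. They held 20396 peaks, of which 29 were also among the 2419.

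H3K27ac was profiled by CUT&RUN, in which a nuclease tethered to an antibody releases the DNA fragments beside it. Tumor cells came from MCP mice with Myf6-Cre, 2 floxed copies of Cdkn2a (Flox/Flox), the Pax(3P3F/P3F) alleles and R26-tdTom, in which Cre acts in myogenic cells, turns on the fusion gene PAX3-FOXO1 (P3F), deletes the tumor suppressor locus Cdkn2a and marks cells with tdTomato. Live cells were sorted by DAPI from dissociated tumors, and no gate on tdTomato is stated for this library, so other live cells of the tumor may be present. Of the 15 libraries of the series, the peak list of the H3K27ac library MCP replicate 5 was analyzed, called against an IgG library, so there are no replicates and no test between groups of promoters was made. The age and strain of the mice are not given in the sources used here.

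The whole list was shallow, with a median of 13 fragments over a summit, and 45.5% of the 21000 protein-coding genes had a peak within 2 kb of a start site. Of 8 marker genes each, 1 myogenic gene (Myf6), no endothelial gene, 1 immune gene (Cd68) and 3 fibroblast genes (Col3a1, Fap and Pdgfra) had a promoter peak, and none of the 32 marker genes was in a divergent pair. Of the myogenic markers, Myod1 and Myog, the regulators that define the muscle lineage, had no promoter peak, so most defining markers of the labelled lineage were not seen in this list. Shares are given with Wilson 95% intervals and medians with 95% intervals from order statistics. Both cover counting error only, and promoters of 1 library are not replicates.

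Acetylation of lysine 27 of histone H3 marks nucleosomes beside active promoters and enhancers, while the start site itself usually lies in a stretch cleared of nucleosomes. At an unpaired promoter the body of its gene lies downstream only, whereas at a bidirectional promoter both flanks are gene bodies. Bidirectional promoters are often rich in CpG dinucleotides, and many serve housekeeping genes of DNA repair, mitochondria and protein synthesis.

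The sequence between the start sites is shown for a few of the pairs named by rule, read from the plus strand of the RefSeq reference GRCm38.p6, the assembly of mm10. No annotated exon lay in any of them. The gene on the left is transcribed to the left and the gene on the right to the right. Capitals mark every match, on either strand, to short motifs of factors that bind promoters, which were CCGGAAG for ETS factors, GCATGCGC for NRF1, AAGATGGC for YY1, the box CCAAT of NF-Y, the GC box GGGCGG of SP factors, the TATA box TATAAA, TGACGTCA for CREB, the E-box CAGCTG of MYOD1 and MYOG, and AGGGGGC as part of the motif of CTCF. GC box and CTCF matches can overlap, as they do in Fhl4/Tmem263. The first set has peaks, and includes Mrpl50/Zfp189 and Fhl4/Tmem263, which were among the 10 pairs with the highest fold enrichment.
Mrpl50/Zfp189 (chr4:49521084-49521175): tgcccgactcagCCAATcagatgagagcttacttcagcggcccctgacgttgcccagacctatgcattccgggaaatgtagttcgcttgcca
Fhl4/Tmem263 (chr10:85102496-85102626): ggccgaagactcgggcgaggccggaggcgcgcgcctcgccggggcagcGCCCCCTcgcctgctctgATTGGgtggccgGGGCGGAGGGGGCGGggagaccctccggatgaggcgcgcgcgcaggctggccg
Ftsj3/Psmc5 (chr11:106256085-106256184): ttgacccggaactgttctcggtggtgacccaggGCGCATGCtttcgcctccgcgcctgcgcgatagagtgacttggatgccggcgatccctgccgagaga
Psmb9/Tap1 (chr17:34187331-34187555): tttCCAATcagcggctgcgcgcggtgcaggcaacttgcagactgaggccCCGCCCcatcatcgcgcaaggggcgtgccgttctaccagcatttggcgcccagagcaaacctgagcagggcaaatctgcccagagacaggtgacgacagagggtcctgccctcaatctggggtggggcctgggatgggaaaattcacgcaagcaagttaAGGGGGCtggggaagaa
Cdc27/Myl4 (chr11:104550621-104550662): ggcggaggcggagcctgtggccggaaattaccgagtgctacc

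The next set pairs histone genes of H2A and H2B, of which the first and second pair had peaks and the third had none. Each of them held 3 CCAAT boxes, and the first and second held 1 TATA box. A further pair without a peak, H2ac22/H2bc22, held 4 CCAAT boxes and also 1 TATA box, so the TATA box did not separate the histone pairs by their peaks.
H2ac6/H2bc4 (chr13:23683960-23684198): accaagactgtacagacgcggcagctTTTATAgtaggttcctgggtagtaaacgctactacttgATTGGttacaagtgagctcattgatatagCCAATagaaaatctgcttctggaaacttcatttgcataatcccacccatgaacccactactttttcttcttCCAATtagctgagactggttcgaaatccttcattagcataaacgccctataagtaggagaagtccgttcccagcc
H2ac20/H2bc21 (chr3:96220881-96221071): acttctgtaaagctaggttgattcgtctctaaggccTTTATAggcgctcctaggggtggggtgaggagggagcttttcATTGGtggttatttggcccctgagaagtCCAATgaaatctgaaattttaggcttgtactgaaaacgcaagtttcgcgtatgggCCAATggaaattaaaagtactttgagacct
H2ac12/H2bc12 (chr13:22035644-22035820): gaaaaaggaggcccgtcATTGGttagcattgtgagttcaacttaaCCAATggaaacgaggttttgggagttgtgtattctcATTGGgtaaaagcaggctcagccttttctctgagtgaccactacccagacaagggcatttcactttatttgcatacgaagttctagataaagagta

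The last set had no peak and no match to any of the motifs. However, Cdc27/Myl4 above had peaks but no match, and Pxmp2/Pole had 5 GC boxes and 2 CCAAT boxes but no peak. Over the 672 pairs with a gap of 20 to 300 bp, the GC box lay between the start sites at 52.2% of those with a peak and 47.9% of those without. For CCAAT these shares were 33.6 and 39.4%.
Fam221b/Tmem8b (chr4:43668860-43668970): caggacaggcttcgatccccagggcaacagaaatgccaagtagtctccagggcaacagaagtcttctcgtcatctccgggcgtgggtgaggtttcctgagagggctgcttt
Usp37/Plcd4 (chr1:74544287-74544359): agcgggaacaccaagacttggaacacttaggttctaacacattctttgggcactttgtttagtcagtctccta

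H3K27ac lay at most divergent pairs. At least 1 peak was found at 800 of the 932 pairs (85.8%, 83.5 to 87.9%), against 7758 of the 19151 unpaired promoters (40.5%, 39.8 to 41.2%) and 45.5% of all genes. The difference was 45.3 percentage points. Genes of pairs made up 8.80% of all protein-coding genes and 16.7% of the 9562 genes with a promoter peak.

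Pairs were richer in CpG dinucleotides, and the difference in peaks was smaller among promoters of like CpG number. The median CpG number within 500 bp to either side was 69 at pairs (quartiles 55 and 85), counted from the midpoint, and 42 at unpaired promoters (quartiles 13 and 71). Promoters were put into 10 strata of CpG number, and 839 of the pairs (90.0%) were in the upper 5 strata. Weighted to the strata of the pairs, 61.4% of unpaired promoters had a peak, which left a difference of 24.4 points. From the stratum of 44 to 55 CpG to that of 96 to 179 CpG, the share rose from 81.1 to 92.4% at pairs and from 58.3 to 69.3% at unpaired promoters. In each of these 5 strata the intervals of pairs and unpaired promoters did not overlap, and the differences lay between 22.5 and 26.5 points. In the stratum of 10 to 16 CpG, 4 of 11 pairs had a peak, against 12.3% of unpaired promoters.

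**Figure D1:**
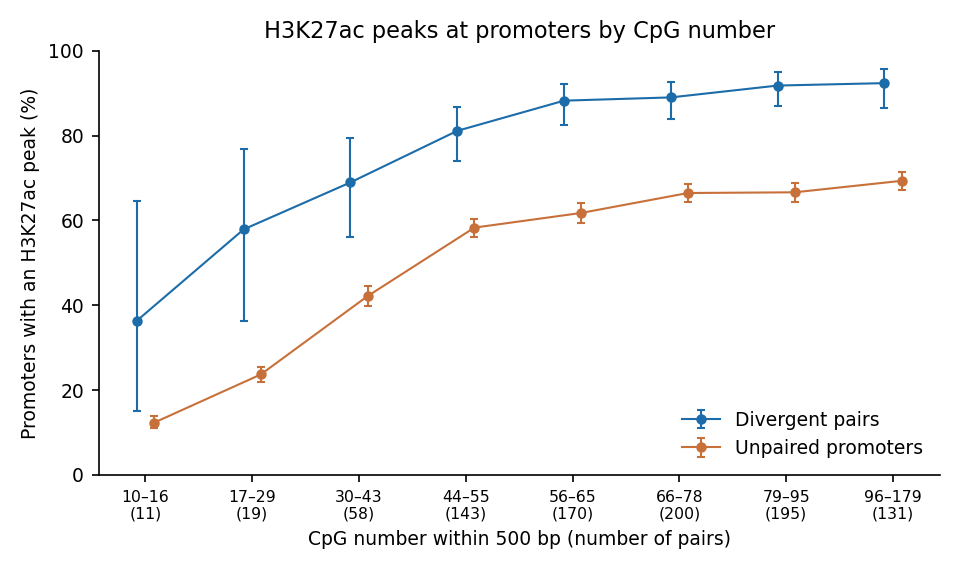
Share of promoters with an H3K27ac peak (vertical axis, percent) against the CpG number within 500 bp (horizontal axis, with the number of pairs in each stratum), for divergent pairs and unpaired promoters, with Wilson 95% intervals. Strata with fewer than 10 pairs are left out, and pairs lie above unpaired promoters in all 8 strata shown, by 22.5 to 34.2 points.

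A pair has 2 gene bodies beside it, so each side was also counted alone, by peak summits. A gene side reaches from the start site 2 kb in the direction of transcription, whatever the length of the gene. In a short gene it therefore runs past the end of the gene. Where a summit or peak is placed in a gene or gene body below, this side is meant. A summit lay on the side of the minus-strand gene at 670 pairs (71.9%) and on the side of the plus-strand gene at 667 (71.6%). Together 71.7% of the gene sides of pairs had a summit, against 35.5% of the downstream sides of unpaired promoters, or 54.6% after weighting to the CpG strata of the pairs. The upstream side of unpaired promoters, which holds no protein-coding start site within 1 kb in the divergent direction, had a summit at 26.0%, or 39.9% after weighting. A gene side of a pair thus exceeded the upstream side of an unpaired promoter by 31.8 points after weighting, and the downstream side by 17.2 points.

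Summits lay on both gene sides at 541 pairs (58.0%, 54.9 to 61.2%), on 1 side only at 255 (27.4%), and on neither side at 136 (14.6%). The share with both sides depended on the threshold and window, with 49.6% within 1 kb of the start sites, 40.8% with peaks of a -log10 q of at least 5 and 22.9% with the strongest 25% of peaks. Of all pairs and unpaired promoters together, 22.9% had summits on both sides, and the unpaired promoters alone had them at 21.1%, or 33.2% after weighting for CpG number. The plus-strand gene had a summit at 80.7% of the pairs whose minus-strand gene had one, and at 48.1% of those whose minus-strand gene had none. At unpaired promoters an upstream summit was found at 59.6% of those with a downstream one and at 7.49% of those without. These splits were not weighted for CpG number. Moreover, 59.7% of unpaired promoters had a summit on neither side, against 14.6% of pairs, so the splits do not compare how closely the sides go together. In the 541 pairs, the higher fold enrichment was on the plus-strand side at 270 (49.9%). The median ratio of the stronger to the weaker side was 1.36 (interval 1.32 to 1.41), beside 1.38 at unpaired promoters with summits on both sides. Spearman's rho between the folds of the sides was 0.10 at these pairs and 0.12 at those unpaired promoters, given as a description. At unpaired promoters with summits on both sides, the stronger summit was downstream at 57.8% of 4050.

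Some unpaired promoters have a divergent noncoding RNA as partner. Among the 1052 unpaired promoters with a RefSeq long noncoding start site in the divergent position within 1 kb, 57.8% had a peak (54.8 to 60.7%) and 35.5% had summits on both sides. These values lay between those of other unpaired promoters, with 39.5% and 20.3%, and those of pairs. In the upper 5 CpG strata the shares with a peak were closer. They were 68.1% with a noncoding partner (64.7 to 71.2%) and 64.1% of the others (63.1 to 65.2%), with overlapping intervals, beside 88.7% of pairs. In the upper 5 CpG strata the shares with summits on both sides were 61.9% of pairs, 42.1% with a noncoding partner (38.8 to 45.6%) and 34.7% of the others (33.7 to 35.7%).

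Summits were sparser between the start sites than in the first 500 bp of the gene bodies, and about as sparse as in their first 100 bp. Of the 2419 peaks, 74 (3.06%, 2.44 to 3.82%) had the summit between the start sites, and peaks covered 7.14% of these bases. At 6 pairs, 1 peak spanned both start sites. Per kb there were 0.352 summits between the start sites and 0.964 in the first 500 bp of the gene bodies. Coverage rose from 8.04 and 7.90% in the first 100 bp of the plus-strand and minus-strand gene bodies to 36.9 and 38.8% between 500 and 600 bp, and fell to 3.86 and 3.52% in the last 100 bp of the 2 kb. The unpaired promoters of the upper 5 CpG strata had less coverage near the start site and more at the far end. Their downstream coverage was 25.9% between 500 and 600 bp, reached 29.6% between 700 and 800 bp, and was 8.91% in the last 100 bp.

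**Figure D2:**
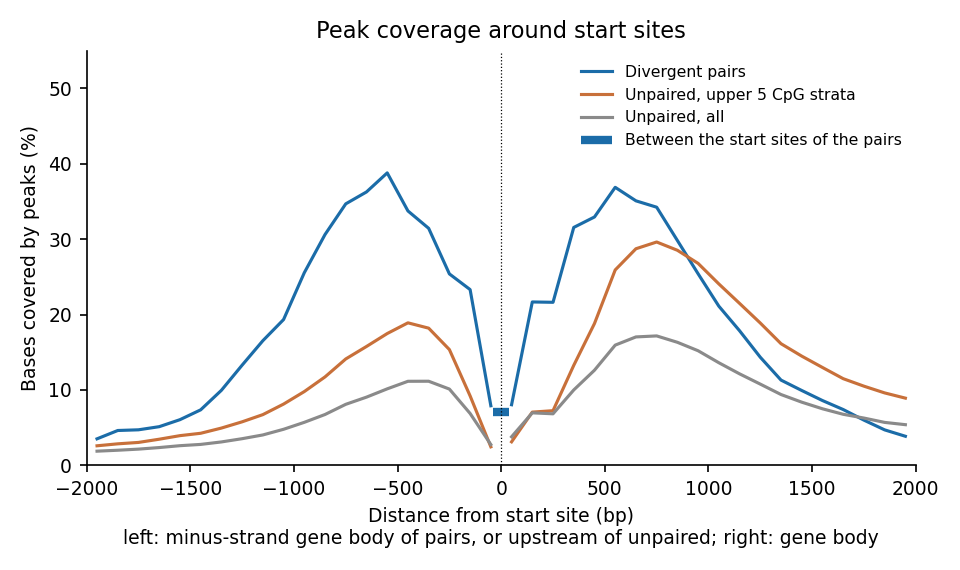
Percent of bases covered by peaks (vertical axis) against the distance from the start site in bp (horizontal axis, bins of 100 bp). Divergent pairs (blue) have similar flanks on either side, with maxima of 38.8 and 36.9%, whereas unpaired promoters (orange, upper 5 CpG strata; grey, all) are lower upstream, and the short bar at 0 is the 7.14% covered between the start sites of the pairs.

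Summits in the gene bodies of pairs gathered at a few distances from the start site. Counted in bins of 20 bp over both sides of all pairs, summits had their first 4 maxima at distances centered on 130, 330, 510 and 690 bp, with 112, 89.6, 112 and 78.9 summits per 1000 sides in 60 bp. A lower maximum followed at 850 bp, with 50.4. Between the first and the second of these, the bins from 220 to 260 bp held 9.66 per 1000 sides each, against 46.1 in the highest bin, at 120 to 140 bp. The first 3 distances stayed the same when the minus-strand and plus-strand sides were counted apart, and at pairs with a gap up to 200 bp and over 200 bp, and the fourth was 690 or 710 bp. Unpaired promoters of the upper 5 CpG strata had their downstream summits at 130, 330, 530 and 690 bp, but with 36.4, 35.7, 68.8 and 69.1 per 1000 sides. Pairs thus had 3.08 times as many summits per side as these downstream sides at the first maximum and 1.14 times as many at the fourth. The upstream sides of the same unpaired promoters had more summits near the start site than their downstream sides. Their first and second maxima were at 190 and 370 bp, with 56.1 and 52.6 per 1000 sides. The distances were picked out after the profile was seen, and a wide peak has 1 summit only, so a position without a summit may still be covered.

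**Figure D3:**
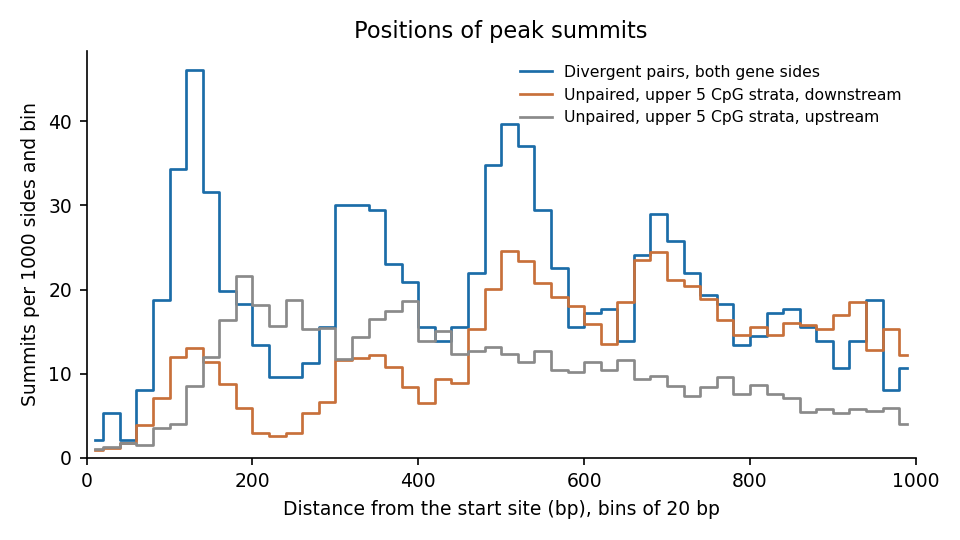
Peak summits per 1000 promoter sides (vertical axis) by distance from the start site in bp (horizontal axis, bins of 20 bp), for both gene sides of divergent pairs and for either side of unpaired promoters of the upper 5 CpG strata. The pairs show maxima near 130, 330, 510 and 690 bp, and the downstream side of unpaired promoters has maxima at like distances but lower ones at 130 and 330 bp.

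The distance between the start sites, with a median of 148.5 bp (quartiles 74 and 296), went with where the mark lay more than with whether it was there. The share of pairs with a peak was 89.1% (85.2 to 92.0%) at gaps up to 100 bp and 79.8% (71.5 to 86.2%) at gaps over 500 bp. Summits on both sides went from 63.8 to 41.2% between the same classes, and pairs with a summit between the start sites from 0.313 to 31.6%. Summits per kb of that space were 0.055 at gaps up to 100 bp and 0.527 at gaps over 500 bp, against 1.03 and 0.702 in the first 500 bp of the gene bodies. At pairs with summits on both sides, the nearest summit lay at a median of 404.5 bp from its start site at gaps up to 100 bp (interval 368 to 470 bp), and the interval of that median at gaps over 500 bp, 341 to 575 bp, overlapped it. Median fold enrichment was 7.70 and 7.80 in these classes.

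**Figure D4:**
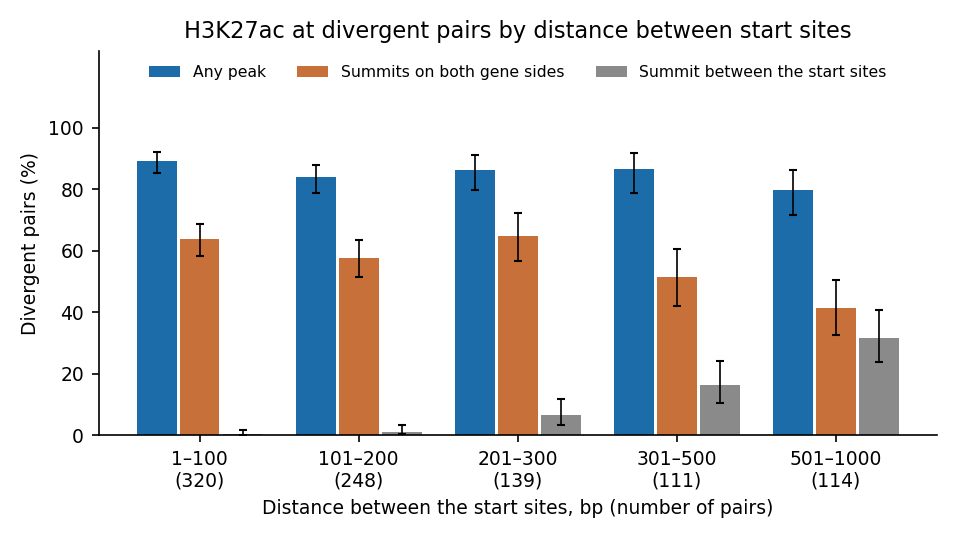
Percent of divergent pairs (vertical axis) with any peak, with summits on both gene sides and with a summit between the start sites, by the distance between the start sites in bp (horizontal axis, number of pairs in brackets), with Wilson 95% intervals. Any peak stays between 79.8 and 89.1%, while summits between the start sites rise to 31.6% in the widest class.

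Just inside the limit of 1 kb were Tns1/Rufy4 (gap 993 bp, no peak), Haghl/Ccdc78 (994 bp, 3 peaks) and Zfyve26/Rad51b (1000 bp, 4 peaks), and just outside it Ddias/Prcp (1006 bp, 5 peaks), Serpina7/4930513O06Rik (1007 bp, no peak) and Sgsm2/Tsr1 (1011 bp, 1 peak). Of the 128 pairs between 1 and 2 kb apart, 71.9% had a peak and 30.5% had summits on both sides. Where the start sites overlapped head to head within 1 kb, 83 of 107 pairs (77.6%) had a peak.

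Pairs had a slightly higher highest fold and more covered bases than unpaired promoters, in windows that were longer by the gap, while single peaks were close in both. The highest fold enrichment over the local IgG background, as the authors' peak caller gave it, had a median of 7.70 over the 800 pairs with a peak (interval 7.37 to 7.80, range 2.97 to 25.9) and 6.94 over the 7758 unpaired promoters with one (interval 6.94 to 7.11). The fragments over that summit were 20 and 18 in the median. Pairs had a median of 3 peaks with 798.5 bp covered, against 2 peaks with 647 bp. Single peaks had median folds of 5.65 (interval 5.58 to 5.65) and 5.56 (5.42 to 5.58), and median widths of 191 bp (179 to 208) and 183 bp (179 to 188). In the upper 5 CpG strata the difference in the median fold was smallest in the stratum of 66 to 78 CpG, with 7.29 and 7.13, and largest in that of 96 to 179 CpG, with 9.02 and 7.53.

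The strongest pair was Gtf2e1/Rabl3 on chromosome 16, where Gtf2e1 encodes a subunit of the general transcription factor TFIIE and Rabl3 a small GTPase. Its start sites were 105 bp apart, and 1 peak of 2146 bp at 37538874 to 37541019 spanned both, with a fold of 25.9 and 59 fragments over a summit 497 bp into Rabl3. A second, small peak of 113 bp in Gtf2e1 had a fold of 3.93. At Rbmxl1/Slc10a7 on chromosome 8, with start sites at 78508928 and 78509328, the order was reversed, with a fold of 23.7 on the side of Rbmxl1, which encodes an RNA-binding protein, and 5.95 on the side of the solute carrier gene Slc10a7.

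The other 8 of the 10 highest pairs had folds between 16.8 and 21.1. Qtrt2/Ccdc191 (chromosome 16, start sites at 43889676 and 43889902), where Qtrt2 takes part in queuosine modification of transfer RNA, had peaks on both sides with folds of 9.77 and 21.1. On chromosome 5, with start sites at 143909839 and 143910001, Aimp2, a scaffold of the aminoacyl-tRNA synthetase complex, had a fold of 19.9, whereas its partner Pms2, a mismatch repair gene, had 4.76. Mrpl50, a mitochondrial ribosomal protein, had 18.1 against 3.79 for Zfp189. At Cnot7/Vps37a (chromosome 8, 40511754 and 40511783), which join a subunit of the CCR4-NOT deadenylase and one of the ESCRT-I complex, both sides were high with 9.96 and 17.7. On chromosome 3 (103809387 and 103809517), Dclre1b, a nuclease of telomeres and crosslink repair, had 4.46 against 16.8 for Ap4b1 of the AP-4 adaptor complex. Wbp11/BC049715 was the only 1 of the 10 with no summit on the plus-strand side, and it had a summit between its start sites, which lay 627 bp apart.

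**Figure D5:**
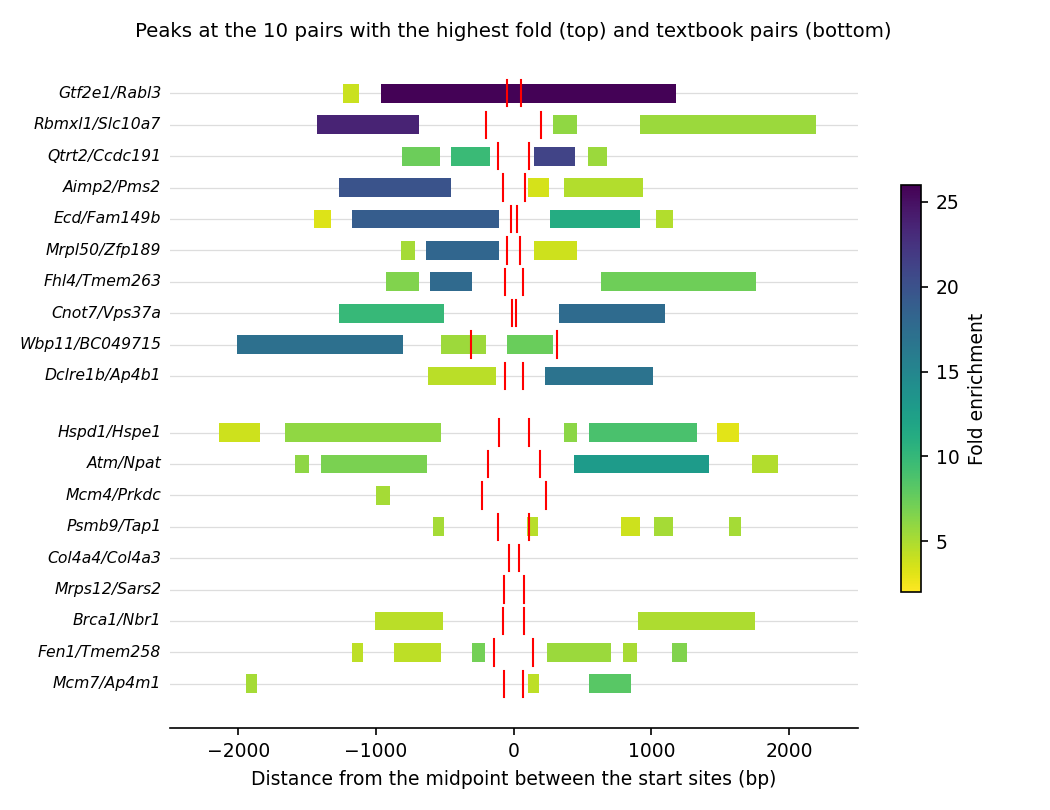
Peaks (bars) by distance in bp from the midpoint between the start sites (horizontal axis) at the 10 pairs with the highest fold enrichment and, below them, at well-known pairs, colored by fold enrichment, with red lines at the start sites. In most rows peaks stand on both sides with a bare stretch between the red lines, Gtf2e1/Rabl3 is spanned by 1 peak, and Col4a4/Col4a3 and Mrps12/Sars2 have none.

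Pairs with the widest coverage had more modest folds. Peaks covered 3230 bp at Prune1/Mindy1, with 7 peaks and a highest fold of 13.4, and 2853 bp at Bend6/Dst, where Dst encodes the cytoskeletal linker dystonin. At Cops5/Cspp1, with the catalytic subunit of the COP9 signalosome and a centrosomal protein, 2752 bp were covered and 75 fragments lay over the highest summit, while its fold over the local background was 8.42. Bend6/Dst and Cops5/Cspp1 are on chromosome 1, where the median highest fold of pairs with a peak was 9.42, beside 7.70 for all pairs with a peak. Among the pairs with summits on both sides were some whose start sites nearly touched. At Capza1/St7l and Tcta/Rhoa the start sites were 1 bp apart. The nearest summits were 716 bp into Capza1, an actin capping protein, and 420 bp into St7l, and 368 bp into Tcta and 1171 bp into the GTPase gene Rhoa. At Kars/Terf2ip, 5 bp apart, the lysyl-tRNA synthetase gene had a fold of 10.4 and the telomere protein gene 3.93.

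Some pairs are textbook examples of bidirectional promoters. Hspd1/Hspe1, the mitochondrial chaperonin genes, had 5 peaks with folds up to 6.00 in Hspd1 and 8.88 in Hspe1. At Atm/Npat, genes of the DNA damage response and of histone gene transcription, the folds were 6.82 and 12.9. Brca1/Nbr1 had 1 peak in each gene, with 4.47 and 4.98, and Fen1/Tmem258 had 3 in each, with 7.12 in the flap endonuclease gene Fen1 and 6.51 in Tmem258. At Mcm7/Ap4m1 the folds were 5.22 and 8.24. Psmb9/Tap1, genes of antigen processing, had 1 peak in Psmb9 and 4 in Tap1, with folds of at most 5.22 and 11 to 30 fragments over the summits. Mcm4/Prkdc had 1 peak of 105 bp in Mcm4 and none in Prkdc. Col4a4/Col4a3, type IV collagen genes, and Mrps12/Sars2 had no peak, and Mrps12/Sars2 lay at a place where a peak number is absent from the list, so a peak may have been left out there.

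Genes of several housekeeping groups were common in pairs. The share of protein-coding genes in a pair was 8.80% in all, but 35 of 98 DNA repair genes (35.7%, 26.9 to 45.6%), 27 of 78 mitochondrial ribosomal protein genes (34.6%), 34 of 114 genes of the respiratory chain and its assembly (29.8%) and 14 of 50 genes of chaperones and mitochondrial import (28.0%) were. For DNA replication and mitosis the count was 21 of 99 (21.2%), for proteasome subunits 10 of 51 (19.6%), and for cytosolic ribosomal proteins 12 of 85 (14.1%). Symbols in Tmem gave 36 of 238 (15.1%) and zinc finger symbols in Zfp 21 of 395 (5.32%).

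Most pairs of these groups had a peak. It was so for 35 of 36 pairs with a DNA repair gene, 33 of 35 of the respiratory chain, 23 of 26 with a mitochondrial ribosomal protein, 20 of 21 of replication and mitosis, all 12 with a cytosolic ribosomal protein, 9 of 10 of the proteasome and 11 of 13 of chaperones and import, beside 800 of 932 in all. The median of the highest fold ran from 7.05 at replication and mitosis to 9.59 at the respiratory chain, beside 7.70 for all pairs. The unpaired genes of the same groups were also mostly marked, with 54 of 63 in DNA repair (85.7%), 65 of 73 cytosolic ribosomal protein genes (89.0%) and 61 of 80 of the respiratory chain (76.2%). In 3 groups their share was at or above that of the pairs, which was so for mitochondrial ribosomal proteins (92.2% against 88.5%), chaperones and import (88.9% against 84.6%) and the proteasome (90.2% against 90.0%). The groups were listed by name and not by their values, but with earlier results of this list known.

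In the respiratory chain, Ndufs3/Kbtbd4, with a gene for a complex I subunit, had the highest fold, 16.0. The ribosomal protein genes Rpl4 and Rpl9, in Zwilch/Rpl4 and Rpl9/Lias, had pairs with 15.2 and 14.5. Ftsj3/Psmc5, whose second gene encodes a proteasome ATPase, had 5 peaks and a highest fold of 13.8. Without a peak were, among others, Ndufaf2/Ercc8 with the excision repair gene Ercc8, Pxmp2/Pole with the catalytic subunit of DNA polymerase epsilon, Lonp1/Catsperd with a mitochondrial protease and Psmd10/Atg4a on the X chromosome. Their CpG numbers were 71, 90, 85 and 26, and none of these 4 reached into a place with an absent peak number.

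Among 98 replication-dependent histone genes 26 were in pairs, forming 13 pairs within the group. A peak lay at 8 of these 13 pairs (61.5%, 35.5 to 82.3%) and at 35 of 72 unpaired histone genes (48.6%). H2ac6/H2bc4 had 6 peaks with folds up to 6.53 on the side of H2ac6 and 16.8 on that of H2bc4, and H2ac20/H2bc21 had 4 with 6.13 and 9.61, whereas H2ac12/H2bc12 and H2ac22/H2bc22 had none. Histone genes are near-identical copies, and reads that map to several copies can be lost or split in the authors' alignment, so these values are uncertain.

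The study used mouse orthologs of gene lists for 6 cell states that others had defined in human rhabdomyosarcoma, and these were compared with the 8.80% of all genes that were in pairs. Of 111 matched proliferation genes 16 were in pairs (14.4%, 9.07 to 22.1%), of 56 apoptosis genes 5 (8.93%), of 42 hypoxia genes 2 (4.76%), of 67 muscle genes 2 (2.99%, 0.822 to 10.2%), of 37 interferon genes 1 (2.70%) and of 124 mesenchymal genes 0, for which the Wilson interval allows up to 3.00%. The intervals of the apoptosis, hypoxia, muscle and interferon lists included 8.80%, that of proliferation lay above it and that of the mesenchymal list below it, and the differences between lists were not tested. The study also used lists of rhabdomyosarcoma genes. Of these, 0 of 42 St. Jude genes (interval up to 8.38%), 0 of 26 NIH genes (up to 12.9%) and 14 of 109 matched dependency genes (12.8%, 7.81 to 20.4%) were in pairs. The muscle genes were Myl4, beside the cell cycle gene Cdc27, and Mylpf, beside Tbc1d10b, both encoding myosin light chains. In Cdc27/Myl4 the start sites were 43 bp apart, and both peaks had their summits on the side of Cdc27, with folds of 5.38 and 12.1 and none on that of Myl4. In Tbc1d10b/Mylpf both summits were on the side of Tbc1d10b, with folds of 4.79 and 6.08. So neither myosin gene had a summit in its first 2 kb.

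The 132 pairs without a peak had fewer CpG dinucleotides, with a median of 56 within 500 bp (interval 52 to 61) against 71 (69 to 73) at the 800 others. Among them 21 (15.9%) reached into a place where a peak number is absent from the list, compared with 73 of all 932 pairs (7.83%). Without these windows 748 of 859 pairs (87.1%) had a peak. The share per autosome ran from 78.6% on chromosome 4 to 94.9% on chromosome 12, and it was 60.0% (40.7 to 76.6%) of the 25 pairs on the X chromosome, where 22.2% of unpaired promoters had a peak.

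Motifs in the 300 bases from 250 before to 50 after each start site differed between the classes. The ETS letters were in 29.9% of the 1864 promoters of pairs (27.8 to 32.0%), in 10.5% of unpaired ones, in 16.3% of those after weighting for CpG number and in 12.2% of all 21015. Pairs with a peak held them in 31.9% of promoters and pairs without one in 17.8% (13.7 to 22.9%), beside 19.6% of the unpaired promoters with a peak. The NRF1, YY1 and CREB letters were also more frequent with a peak, and the GC box was close (68.4 and 67.0%). The others were less frequent with a peak than without, namely the E-box (10.9 and 17.8%), CCAAT (41.6 and 46.2%), CTCF letters (14.8 and 18.9%) and TATA letters (3.94 and 6.82%). This split was not weighted for CpG number. The letters of YY1 were in 7.62% of promoters of pairs, against 3.97% of unpaired ones after weighting and 3.26% of all. Those of NRF1 were in 6.44% (5.41 to 7.64%) against 5.59% and 3.67%, so the interval at pairs included the weighted value. Those of CREB were in 4.40% (3.56 to 5.43%) against 3.33% and 2.51%.

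The TATA letters and the E-box were rarer at pairs than at unpaired promoters, with and without weighting, whereas the GC box and CTCF letters were more frequent at pairs than at all promoters but less frequent than at unpaired ones after weighting. The TATA letters were in 4.35% of promoters of pairs (3.51 to 5.37%), 6.81% of unpaired ones after weighting and 12.9% of all. CCAAT was in 42.2% (40.0 to 44.5%), 37.0% and 38.9%, the GC box in 68.2%, 71.4% and 48.4%, the E-box in 11.9%, 14.5% and 15.1%, and the CTCF letters in 15.4%, 19.2% and 13.4%. Both promoters of a close pair share most of these bases, so the 1864 windows are not independent. Median GC content was 62.7% at pairs and 56.0% at unpaired promoters.

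In the stretch between the start sites itself, for the 672 pairs with a gap of 20 to 300 bp, the ETS letters occurred at 126 (18.8%) and on both strands at 9. NRF1 letters, as in Ftsj3/Psmc5 above, occurred at 32 of these, and all 32 had a peak, beside 578 of the 672. That did not hold for the windows of 300 bases at all pairs. There the NRF1 letters were in 113 of 1600 promoters of pairs with a peak and in 7 of 264 of pairs without one. CCAAT occurred at 34.4% of them, and the 3 histone pairs shown above each held it 3 times, with and without a peak. A match says only that the letters are there.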

How the data were processed

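CUT&RUN of H3K27ac and IgG was done in tumors of MCP (Myf6-Cre) and TCP (Tek-Cre) mice, and only the peaks of MCP replicate 5 for H3K27ac (1 in its description) were used, while the other libraries were not analysed here. The study's methods name bowtie, mm10 and an early MACS, while the labels list BWA, SAMtools and MACS2, so the exact caller settings are not known here. The study's methods describe dropping reads before calling, in regions listed as problematic and in an amplification beside Col19a1. Whether the reads behind this list were filtered in that way is not known here. Peaks were called per library against IgG and not on pooled samples. The deposited fold is a ratio of summit fragments to local background. The deposited -log10 p-value and -log10 q-value of each peak and its deposited score are the authors' own, and the largest q was 0.0471. Peak numbers are absent from the list for 584 numbers.

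Start sites (26032, forming 1188 pairs of sites) came from curated RefSeq mRNAs of GRCm38.p6, which has the coordinates of mm10. The closest pair of sites stood for each gene pair, and 30 of the 932 pairs share a gene with another pair. Fragments over a summit were solved from fold and p as whole numbers within 0.01, which failed for 2 peaks. They had 1 solution for 91.3% of the peaks, otherwise the closest was taken, and with a scale 3% off 4.50% of a sample gave one. They are inferences and not read counts. The depth of the library is given by them only, at 1.13 times that of IgG, and fragments are not independent molecules. Motifs were searched as exact letters on both strands.

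Pairs were named by rule: the 10 with the highest fold, the 5 most covered, the 5 closest with summits on both sides, textbook pairs, up to 2 with and 2 without a peak per gene list, and 3 on each side of the 1 kb limit. The members, lists and rules were chosen with earlier results of these data known. No test was made, as there was 1 library. Python 3.11.15, numpy 2.4.6, pandas 2.3.3, scipy 1.17.1 and pysam 0.24.0 were used, and the counting steps were tested on simulated data. Alternatives were peak thresholds, window, gap, annotation, choice of start site and CpG weighting.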

Additional observations from a re-analysis of the deposited data

How the results depend on the processing

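No paired analysis was possible because 1 library was used and no test was made. Of 47 values under other settings, 29 stayed within the 95% interval of the reported value and 18 did not. The share of pairs with a peak exceeded that of unpaired promoters in every setting run, by 38.0 to 46.2 points, and by 24.4 points after weighting for CpG number. With a -log10 q of at least 5, 76.5% of pairs and 33.0% of unpaired promoters had a peak, 40.8% of pairs had summits on both sides and the median fold was 8.21. With the strongest 25% of peaks these values were 63.1%, 25.1%, 22.9% and 8.67. Both settings remove weaker peaks by construction. With 1 kb on either side, 38.2% of unpaired promoters had a peak and 49.6% of pairs had summits on both sides. With start sites at most 500 bp apart, 1.51% of peaks had the summit between them. GENCODE M21 start sites gave 38.3% of unpaired promoters with a peak. With predicted RefSeq mRNAs added, 82.2% of pairs and 37.8% of unpaired promoters had a peak and 2.20% of summits lay between. With every start site counted, the unpaired share was 41.3% and 4.08% of summits lay between. A window of 4 kb around the midpoint gave 85.6% of pairs. Leaving out windows at absent peak numbers was chosen after seeing the data and gave 87.1% and 41.1%. Where a value moved with the annotation, the cause was not tested. Depth limits single pairs: the quartiles of fragments over a summit at pairs are 12 and 21, so a missing peak is not a missing mark.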
